A study of Mus musculus with 10 samples.

Results

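Liver RNA of germ-free (GF) mice that received microbiota-derived extracellular vesicles (MEV) was compared with that of GF mice that received vehicle, for the genes of the 3 large families of conjugating enzymes. These are the glutathione S-transferases (GST, with the microsomal MGST), the UDP-glucuronosyltransferases (UGT) and the sulfotransferases (SULT). The families were chosen with earlier results of these data known. Their members were taken by gene symbol alone: every protein-coding gene of the 3 families in the GENCODE annotation of GRCm38. The annotation held 67 such genes, and 44 of them were among the 12148 genes of the count table. These were 22 of 25 GST genes, 15 of 21 UGT genes and 7 of 21 SULT genes, and the other 23 genes were not analysed here. All 44 passed the filter on low counts and were tested.

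The 10 mice were wild-type C57BL/6 animals without a microbiota, and this holds for the controls as well as for the treated group. MEV are the small membrane particles that gut bacteria shed, here purified from gut content of control mice with a normal flora. The GF+MEV group (5 mice) was given 80 μg of MEV in PBS by mouth, 2 times a week for 3 weeks, and the GF+PBS group (5 mice) was given PBS alone on the same schedule. Age and sex are not stated separately for these mice in the sources used here. RNA was taken from whole liver, with 1 library per mouse, from 1 experiment, so any difference between groups covers all liver cell types, and fewer cells of a type cannot be told apart from less RNA per cell. Libraries held between 15746119 and 20523649 counts. Levels are read counts relative to library size (CPM), scaled by the trimmed mean of M-values (TMM), which corrects each library for its depth and composition. Hepatocyte markers were abundant in every library, with 88343 to 108165 CPM summed over 7 genes in GF+MEV and 89572 to 105920.1 in GF+PBS.

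The GF+PBS livers were not equally apart from each other. The root mean square difference of log2 CPM over 12147 genes was 0.276 between GF+PBS 4 and 5 and 0.283 between GF+PBS 1 and 3, against 0.311 to 0.402 for the other 18 pairs of livers within a group. The labels do not say whether these mice shared a cage or litter. The p-values below treat each liver as a separate sample, and counts that depend on these pairs are given with the pairs summed and with each set of controls alone.

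Conjugation is the second step of xenobiotic metabolism. A GST joins the thiol of glutathione to a reactive electrophile, a UGT transfers glucuronic acid from UDP-glucuronic acid to a hydroxyl, carboxyl or amine group, and a SULT transfers sulfate from the donor PAPS. The products are more soluble in water and leave the hepatocyte by transporters into bile or blood. The same enzymes handle bilirubin, bile acids, steroids and thyroid hormones as well as drugs, and hepatocytes carry most of them in the liver.

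Of the 44 genes, 10 fell and 1 rose in GF+MEV livers at an adjusted p under 0.05 (edgeR quasi-likelihood test, Benjamini-Hochberg over all 12147 genes tested). That is 25.0% of the enzymes, against 7.64% of all genes tested. The direction was uneven: 22.7% of the enzymes fell against 3.52% of all genes, and the single rise compares with 4.12% of all genes. Across all genes, 53.9% of the calls were rises under TMM, a share that became 41.2% with upper-quartile factors and 32.5% with library size alone, while the enzymes gave 1 rise and 11 or 12 falls under these scalings. The GST family held 8 of the 10 falls (36.4% of its 22 genes) and no rise, the UGT family 1 rise and 1 fall, and the SULT family 1 fall. The median log2 fold change was -0.27 for GST, -0.18 for UGT and -0.052 for SULT, beside -0.0037 for all genes tested. The log2 fold change was below 0 in 19 of the 22 GST genes, 11 of the 15 UGT genes and 4 of the 7 SULT genes, where 51.0% of all genes were below 0. These counts and medians describe the families, and no test was made of a family as a whole.

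**Figure D1:**
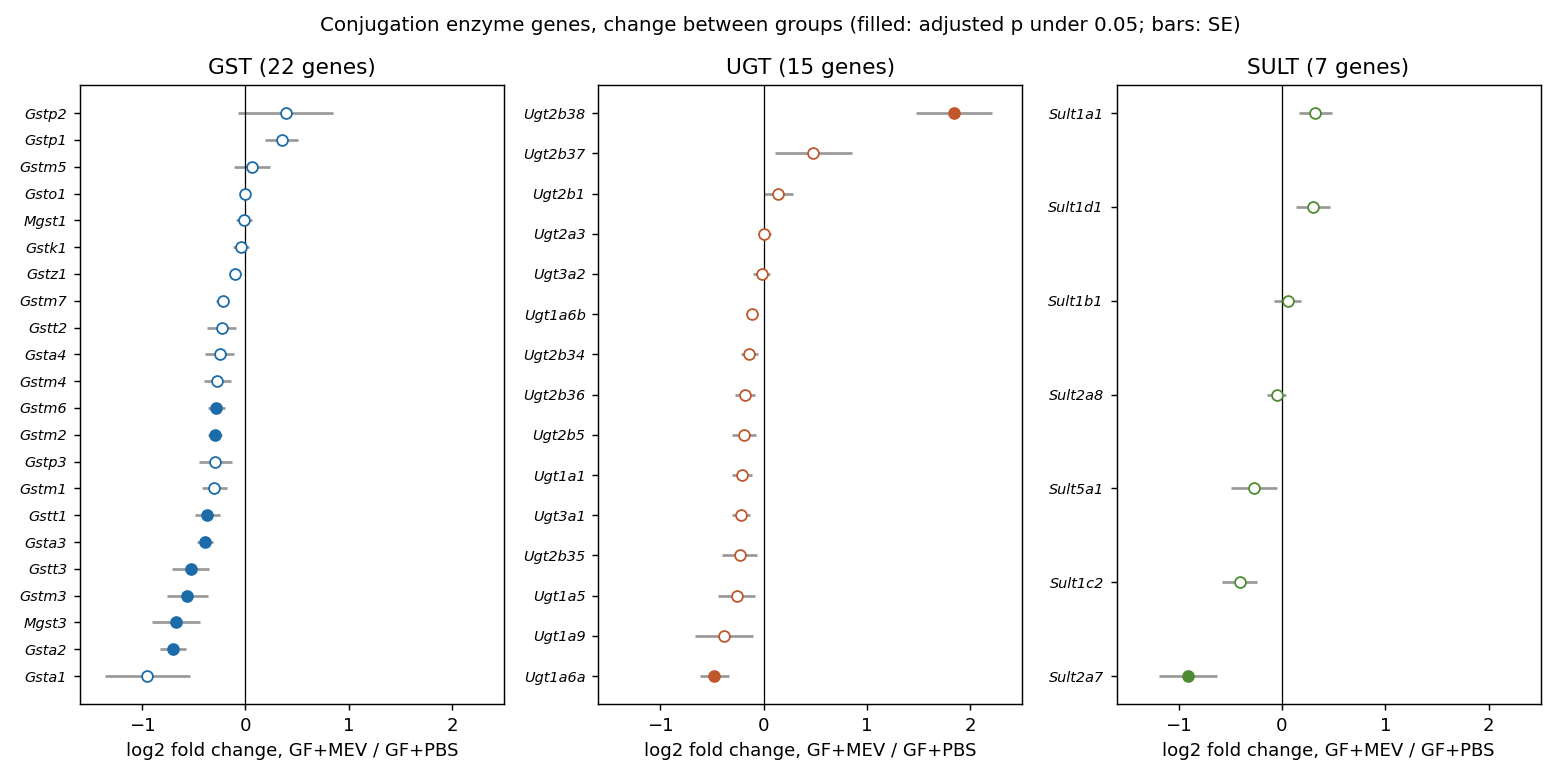
Log2 fold change of each of the 44 enzyme genes between GF+MEV and GF+PBS livers (horizontal axis), one panel per family, with the SE as a bar and filled points for genes with an adjusted p under 0.05. The 8 filled GST points all lie below 0, between -0.70 for Gsta2 and -0.28 for Gstm6, and Ugt2b38 at 1.84 is the only filled point above 0.

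How firmly the falls hold depended on which livers entered. Only Gsta2, Gsta3 and Ugt2b38 were called in all 21 alternative analyses, and Gstm2 was called in 18 of them. With the 2 pairs of alike controls summed to leave 3 GF+PBS samples, only Gsta2, Gsta3 and Ugt2b38 were called. That was 6.82% of the 44 genes beside 4.62% of all genes tested, a share close to the background. Leaving out 1 liver at a time left between 4 and 11 of the 44 genes called. The count was 4 without GF+MEV 4 or GF+PBS 4 (9.09% of the 44 genes, beside 6.80% and 5.80% of all genes tested). It was 5 without GF+MEV 2, GF+MEV 3 or GF+PBS 5 (11.4%, beside 6.47%, 6.27% and 7.62%). It was 6 without GF+PBS 3 (13.6% beside 5.73%) and 7 without GF+MEV 1 (15.9% beside 6.46%). The share was 22.7% without GF+MEV 5 or GF+PBS 1 (beside 6.73% and 6.96%) and 25.0% without GF+PBS 2 (beside 7.43%).

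The alpha class of GST detoxifies lipid peroxidation products and, in rodents, aflatoxin epoxide, for which Gsta3 is the main enzyme in mouse liver. Gsta3 (ENSMUSG00000025934, chr1:21240589-21265661, plus strand) was measured at 1464, 1399, 1261, 1504 and 1531 CPM in GF+MEV 1 to 5 and at 2129.5, 1675, 1948, 1860.3 and 1800.3 CPM in GF+PBS 1 to 5. Each MEV-treated liver was below each control liver. The mean was 1432 ± 107 CPM in GF+MEV and 1883 ± 170.0 CPM in GF+PBS (SD over 5 livers), and the fit gave -0.39 on the log2 scale (SE 0.076, edgeR adjusted p = 0.0040). Per kb of exon Gsta3 was at 382 ± 62.8 CPM over the 10 livers, below Mgst1 (1775 ± 133), Gstm1 (1436 ± 239) and Gstp1 (515 ± 107). With the length of the longest coding transcript in place of all exon bases, Gsta3 was at 1138 ± 187 and Gstp1 at 971 ± 202 CPM per kb, so the order of these 2 genes depended on the length used. In share of reads, Mgst1, Gstm1 and Gsta3 made up 71.7% of the CPM of the 22 GST genes.

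Gsta2, another alpha-class enzyme (ENSMUSG00000057933, chr9:78331018-78355788, minus strand), showed the largest fall among the called GST genes. It was at 27.4, 23.7, 20.2, 23.7 and 25.5 CPM in GF+MEV and at 40.9, 29.7, 37.4, 44.1 and 43.7 CPM in GF+PBS. The groups did not overlap, and the level in GF+MEV was lower by 38.5% on the fitted scale (log2 fold change -0.70, SE 0.13, edgeR adjusted p = 8.2e-04). Its neighbour Gsta1 was near the detection limit, at 0.393 to 2.92 CPM over the 10 livers, with a log2 fold change of -0.95 (SE 0.41) that did not pass the test (edgeR adjusted p = 0.124). The 2 coding sequences are 97.5% identical, and 35.02% of the 100-base windows of the Gsta2 transcript, and 81.83% of those of Gsta1, are found unchanged in another gene, so part of their reads could not be assigned to one of them. Coding bases 578 to 667 are shown because 6 of the 17 positions at which the pair differ fall there, with capitals at the bases that differ (GENCODE sequence of GRCm38, 5′ to 3′).
Gsta2: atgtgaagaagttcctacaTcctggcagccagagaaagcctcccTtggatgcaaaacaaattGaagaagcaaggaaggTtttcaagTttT
Gsta1: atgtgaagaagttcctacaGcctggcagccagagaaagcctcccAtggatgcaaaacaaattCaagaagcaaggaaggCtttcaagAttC
The remaining alpha gene, Gsta4, which conjugates the lipid aldehyde 4-hydroxynonenal, had overlapping groups, at 38.2 to 58.4 CPM in GF+MEV and 45.2 to 65.9 CPM in GF+PBS (log2 fold change -0.25, SE 0.14, edgeR adjusted p = 0.221).

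The mu class, a tight cluster of 7 measured genes on chromosome 3, takes epoxides and quinones. Of the 7 genes 3 fell, Gstm2, Gstm3 and Gstm6, and 6 had a log2 fold change below 0. Gstm2 (ENSMUSG00000040562, chr3:107981702-107986453, minus strand) was at 68.7, 58.8, 61.5, 67.9 and 63.9 CPM in GF+MEV and at 82.3, 70.0, 85.5, 80.6 and 74.5 CPM in GF+PBS. Its groups did not overlap, with a small fold change of -0.29 (log2, SE 0.067, edgeR adjusted p = 0.017). Gstm3 (chr3:107963696-107969283, minus strand) was at 60.7, 59.6, 47.1, 59.4 and 78.8 CPM in GF+MEV and at 103, 55.5, 97.2, 98.6 and 94.8 CPM in GF+PBS. GF+PBS 2 stood apart from the other 4 controls and lay within the range of the treated livers, and the fall of 0.56 on the log2 scale (SE 0.20) passed the test narrowly (edgeR adjusted p = 0.040). Gstm6 was at 146, 127, 122, 124 and 132 CPM in GF+MEV and at 177, 133, 163, 168 and 149 CPM in GF+PBS (log2 fold change -0.28, SE 0.085, edgeR adjusted p = 0.041), with GF+PBS 2 again the lowest control.

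Gstm1, the most abundant mu gene, was just outside the threshold. It was at 2053, 1982, 1834, 1615 and 1989 CPM in GF+MEV and at 2716, 1819.8, 2534, 2469 and 2148 CPM in GF+PBS (log2 fold change -0.30, SE 0.12, edgeR adjusted p = 0.087). GF+PBS 2 was the only control inside the treated range. Gstm7 was likewise outside the threshold (-0.22, SE 0.066, edgeR adjusted p = 0.063), and both genes were called when GF+PBS 2 was left out. Gstm4 (-0.27) and Gstm5 (0.064, at 3.57 to 5.86 CPM) were not called.

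The theta class acts on small halogenated molecules, and its 3 measured genes are all on chromosome 10. Gstt1 (ENSMUSG00000001663, chr10:75783813-75798584, minus strand) was at 302, 281, 269, 216 and 302 CPM in GF+MEV and at 347, 314, 322, 426 and 364 CPM in GF+PBS. The groups did not overlap (log2 fold change -0.37, SE 0.12, edgeR adjusted p = 0.032). Gstt3 was at 35.4, 26.6, 27.2, 22.1 and 33.7 CPM in GF+MEV and at 37.5, 38.2, 33.2, 54.8 and 46.0 CPM in GF+PBS, so that GF+PBS 3 lay within the treated range (-0.53, SE 0.18, edgeR adjusted p = 0.033). Gstt2 was at 128 ± 19.9 and 149.9 ± 21.5 CPM and was not called (edgeR adjusted p = 0.261). Part of the Gstt3 transcript, 23.92% of its 100-base windows, is repeated in another gene, and none of that of Gstt1.

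Of the microsomal enzymes, which are membrane proteins of a separate fold, Mgst3 fell and Mgst1 did not pass the test. Mgst3, which also has leukotriene C4 synthase activity, was at 11.5, 12.8, 12.7, 9.94 and 12.5 CPM in GF+MEV and at 17.2, 11.5, 15.5, 27.0 and 23.4 CPM in GF+PBS (log2 fold change -0.67, SE 0.23, edgeR adjusted p = 0.039). The controls were widely spread, with GF+PBS 4 and 5 highest and GF+PBS 2 level with the treated livers. Mgst1, the most abundant of all 44 genes per kb of exon (1775 ± 133 CPM per kb, SD, n = 10), was at 3556 ± 305 CPM in GF+MEV and 3589 ± 259.5 CPM in GF+PBS, a log2 fold change of -0.013 (SE 0.074).

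None of the 3 pi genes passed the test, and their log2 fold changes differed in sign. Gstp1, which in mice is abundant in male liver, was at 889, 959, 877, 1071 and 676 CPM in GF+MEV and at 879, 563, 789, 684 and 589.7 CPM in GF+PBS. The groups overlapped (log2 fold change 0.35, SE 0.16, edgeR adjusted p = 0.126). Gstp2 shares 98.1% of its coding bases with Gstp1 and was at 1.32 to 6.69 CPM, with the widest spread within groups of all the enzymes (SD 0.72 on the log2 scale). The zeta gene Gstz1, which isomerises maleylacetoacetate in tyrosine breakdown, did not overlap between groups, at 759 to 803 CPM in GF+MEV and 810 to 886 CPM in GF+PBS, yet its log2 fold change of -0.10 (SE 0.028) did not pass the test (edgeR adjusted p = 0.286). Gstp3 (-0.29), Gsto1 (-0.0050) and Gstk1 (-0.041) were not called.

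**Figure D2:**
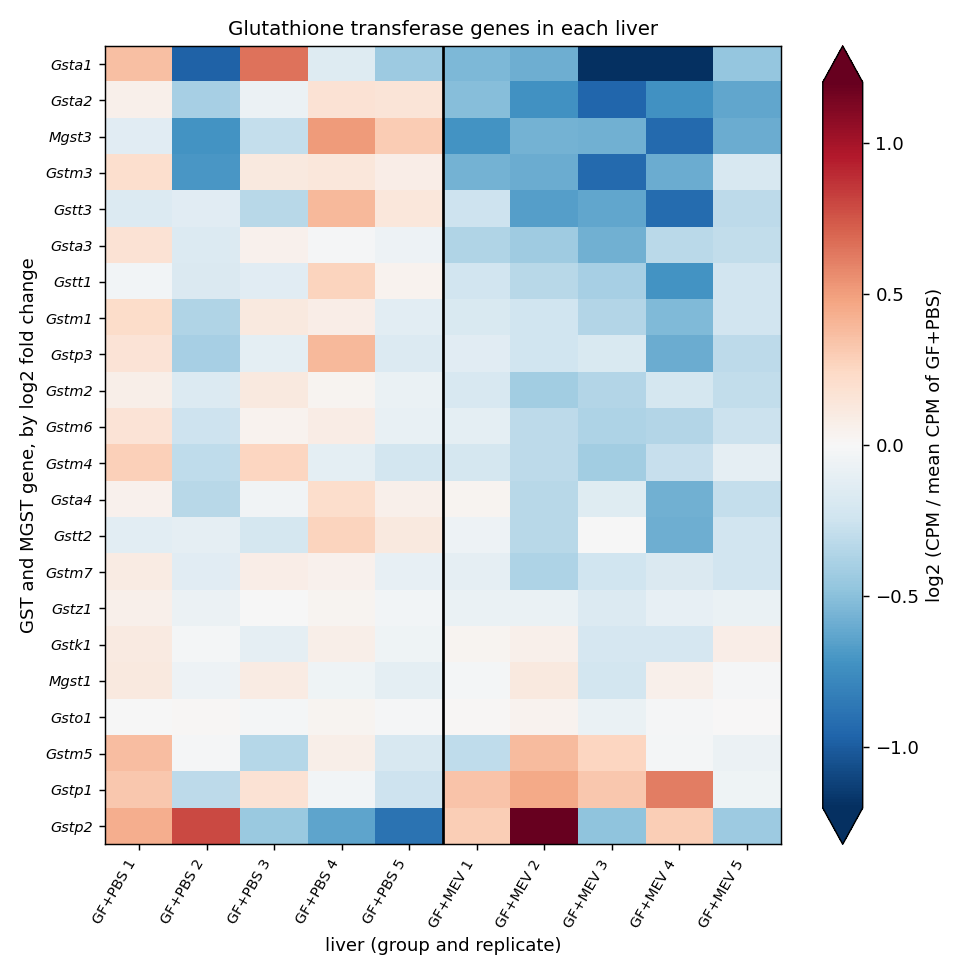
Level of each of the 22 GST and MGST genes (rows, ordered by log2 fold change) in each liver (columns), as log2 of CPM over the mean CPM of the 5 GF+PBS livers, with colours saturating at 1.2 in either direction. GF+PBS 2 is bluer than the other controls over the upper rows, being the lowest control in 15 of the 22 genes, and the Gstt and Mgst3 rows are reddest in GF+PBS 4 and 5.

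The control livers varied in step only in part: most GST genes shared the lowest control, while the highest control differed between genes. GF+PBS 2 was the lowest control in 7 of the 8 called GST genes and in 15 of all 22. Gsta3 and the mu genes were highest in GF+PBS 1 or 3, while Gstt1, Gstt3 and Mgst3 were highest in GF+PBS 4. Set against GF+PBS 1 and 3 alone, a choice made after the data were seen, 11 enzymes fell (2.54% of all genes fell and 8.17% were called in that fit), among them Gsta1 and the mu genes Gstm1, Gstm2, Gstm3, Gstm4, Gstm6 and Gstm7. Set against GF+PBS 2, 4 and 5 alone, 9 fell (3.18% of all genes fell and 6.32% were called), and these included Gstt1, Gstt3, Mgst3, Sult2a7 and 3 Ugt1a genes but no mu gene. Gsta2, Gsta3 and Mgst3 fell, and Ugt2b38 rose, against either set.

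The UGT families divide by gene structure. The UGT1A enzymes, among them the bilirubin-conjugating Ugt1a1, are read from one locus on chromosome 1, where alternative first exons join a shared set of later exons. All 5 measured Ugt1a genes had a log2 fold change below 0, from -0.48 to -0.11, and 1 fell. This was Ugt1a6a (ENSMUSG00000054545, chr1:88134809-88218997, plus strand), which conjugates small planar phenols. It was at 5.06, 6.76, 4.49, 5.33 and 6.68 CPM in GF+MEV and at 7.05, 9.53, 6.90, 7.93 and 7.81 CPM in GF+PBS. The groups were separated by a narrow gap (log2 fold change -0.48, SE 0.14, edgeR adjusted p = 0.045). Because every 100-base window of its transcript (100%) is found in another gene, and 57.18% to 71.46% for the other 4 Ugt1a genes, the value of any one Ugt1a gene depends on how the shared reads were counted, which is not given in the sources used here. Ugt1a1 was at 38.5 ± 3.96 CPM in GF+MEV and 44.6 ± 4.59 CPM in GF+PBS (edgeR adjusted p = 0.174).

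The UGT2B enzymes conjugate steroids and bile acids and are separate genes in a row on chromosome 5. The 3 highest UGT genes per kb of exon were Ugt2b5 (441 ± 62.6 CPM per kb, SD, n = 10), Ugt2b36 (284 ± 35.6) and Ugt2b1 (229 ± 37.1), and together they held 58.6% of the CPM of the 15 UGT genes. None of them was called: the log2 fold changes were -0.19, -0.18 and 0.14, with SEs of 0.12, 0.10 and 0.14. The gene that rose was a minor one. Ugt2b38 (ENSMUSG00000061906, chr5:87409942-87424203, minus strand), at 4.35 CPM per kb on average, was read at 357, 198, 206, 237 and 87 counts in GF+MEV 1 to 5 and at 94, 59, 71, 46 and 49 counts in GF+PBS 1 to 5. In CPM it was at 21.8, 13.7, 9.95, 13.3 and 5.59 against 5.22, 3.31, 4.23, 2.32 and 2.94. Every treated liver was above every control, though GF+MEV 5 only just, and the treated livers spread over a wider range. The fitted rise was 3.57-fold (log2 fold change 1.84, SE 0.37, edgeR adjusted p = 0.0014). For Ugt2b38, as for the other 6 genes whose groups did not overlap, the exact two-sided permutation p was 0.00794, the smallest that 5 livers against 5 can give. Among all genes tested, 7.39% did not overlap.

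Ugt2b38 is a close copy of Ugt2b5, which was not called and was at 733, 807, 615, 854 and 819.6 CPM in GF+MEV and 1038, 809, 960.2, 769.8 and 785 CPM in GF+PBS. The pair match at 97.0% of 1593 coding positions, with 47 differences and an identical run of 443 bases, and 24.22% of the 100-base windows of Ugt2b38 are found in another gene. In coding bases 1422 to 1511, shown because 10 of the differences fall there, capitals mark the bases by which reads of the 2 genes can be told apart.
Ugt2b38: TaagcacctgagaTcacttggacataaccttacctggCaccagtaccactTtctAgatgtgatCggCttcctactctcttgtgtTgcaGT
Ugt2b5: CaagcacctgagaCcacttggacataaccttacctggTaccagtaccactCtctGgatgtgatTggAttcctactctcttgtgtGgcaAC
The 250 bases before their RefSeq start sites (GRCm38.p6, minus strand, chr5:87424204-87424453 for Ugt2b38 and chr5:87140341-87140590 for Ugt2b5) are shown because the pair moved differently. They are identical at 212 of 260 aligned positions (81.5%), and capitals mark bases that differ or have no partner.
Ugt2b38: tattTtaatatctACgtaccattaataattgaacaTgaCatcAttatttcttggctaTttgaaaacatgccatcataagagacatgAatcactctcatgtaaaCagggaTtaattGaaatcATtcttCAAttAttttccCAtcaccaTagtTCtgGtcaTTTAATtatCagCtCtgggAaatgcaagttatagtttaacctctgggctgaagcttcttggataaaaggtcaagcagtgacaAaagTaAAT
Ugt2b5: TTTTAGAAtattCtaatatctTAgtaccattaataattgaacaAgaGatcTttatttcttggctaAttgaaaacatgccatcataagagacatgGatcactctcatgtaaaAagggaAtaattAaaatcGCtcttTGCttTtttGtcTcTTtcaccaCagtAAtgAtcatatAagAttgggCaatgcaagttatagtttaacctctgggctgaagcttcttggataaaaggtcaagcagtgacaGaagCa
Ugt2b37, the next closest gene to Ugt2b5 at 94.7% of coding bases, was at 0.961 to 3.87 CPM with overlapping groups (log2 fold change 0.48, SE 0.37, edgeR adjusted p = 0.446).

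**Figure D3:**
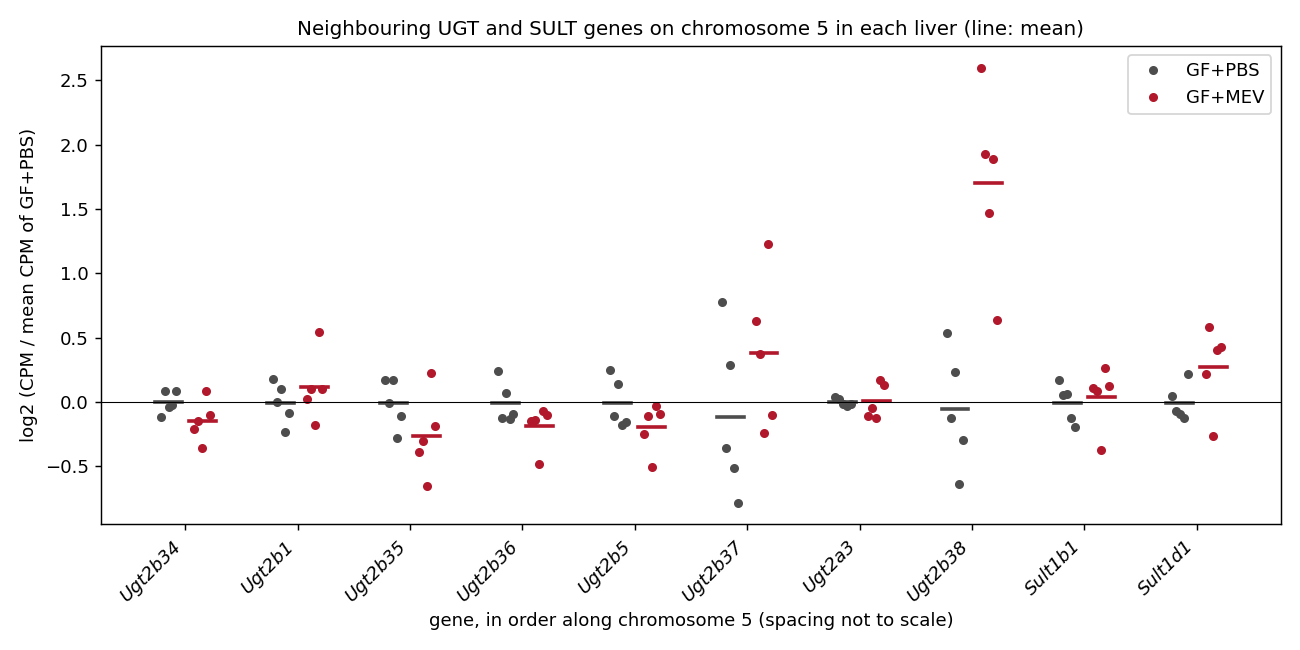
Level of the 10 measured UGT and SULT genes of chromosome 5 in each liver (points), as log2 of CPM over the mean CPM of GF+PBS, with genes in their order along the chromosome and a line at the group mean. Only Ugt2b38 has groups that do not overlap, and its neighbours on either side, Ugt2a3 and Sult1b1, overlap around 0.

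The remaining UGT genes, Ugt2a3, Ugt2b34, Ugt2b35, Ugt3a1 and Ugt3a2, had log2 fold changes between -0.23 and 0.0077 and were not called. Ugt3a enzymes use other sugar donors than UDP-glucuronic acid. Ugt3a1 was at 51.3 ± 4.73 CPM in GF+MEV and 59.6 ± 6.07 CPM in GF+PBS (edgeR adjusted p = 0.136).

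SULT message was concentrated in a pair of genes. Sult2a8, a bile acid sulfotransferase, and Sult1a1, the phenol sulfotransferase, held 89.3% of the CPM of the 7 SULT genes. Per kb of exon they were at 203 ± 19.0 and 209.9 ± 41.1 CPM (SD, n = 10), a difference within their spread, with Sult2a8 at 311 ± 29.1 and Sult1a1 at 245 ± 48.1 by the longest coding transcript, and Sult1d1, which acts on catecholamines, followed at 29.1 ± 5.71. None of the 3 was called. Sult1a1 was at 387, 383, 346, 264 and 374 CPM in GF+MEV and at 243, 253, 231, 353 and 328 CPM in GF+PBS. It was higher in 4 of the treated livers than in 4 of the controls, but GF+MEV 3 and 4 lay within the control range, and the controls were split between GF+PBS 1, 2 and 3 and GF+PBS 4 and 5 (log2 fold change 0.32, SE 0.16, edgeR adjusted p = 0.165). Sult1d1 had a log2 fold change of 0.30 (SE 0.16, edgeR adjusted p = 0.183) and Sult2a8 of -0.052 (SE 0.094). The one SULT gene that fell was scarce. Sult2a7 (ENSMUSG00000094156, chr7:14465051-14494230, minus strand) was at 1.59, 1.59, 1.06, 0.786 and 2.25 CPM in GF+MEV and at 2.28, 3.31, 2.20, 2.27 and 3.42 CPM in GF+PBS (log2 fold change -0.91, SE 0.28, edgeR adjusted p = 0.041). The groups overlapped only through GF+MEV 5 and GF+PBS 3. Sult1b1 (0.055), Sult1c2 (-0.41) and Sult5a1 (-0.27) were not called.

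**Figure D4:**
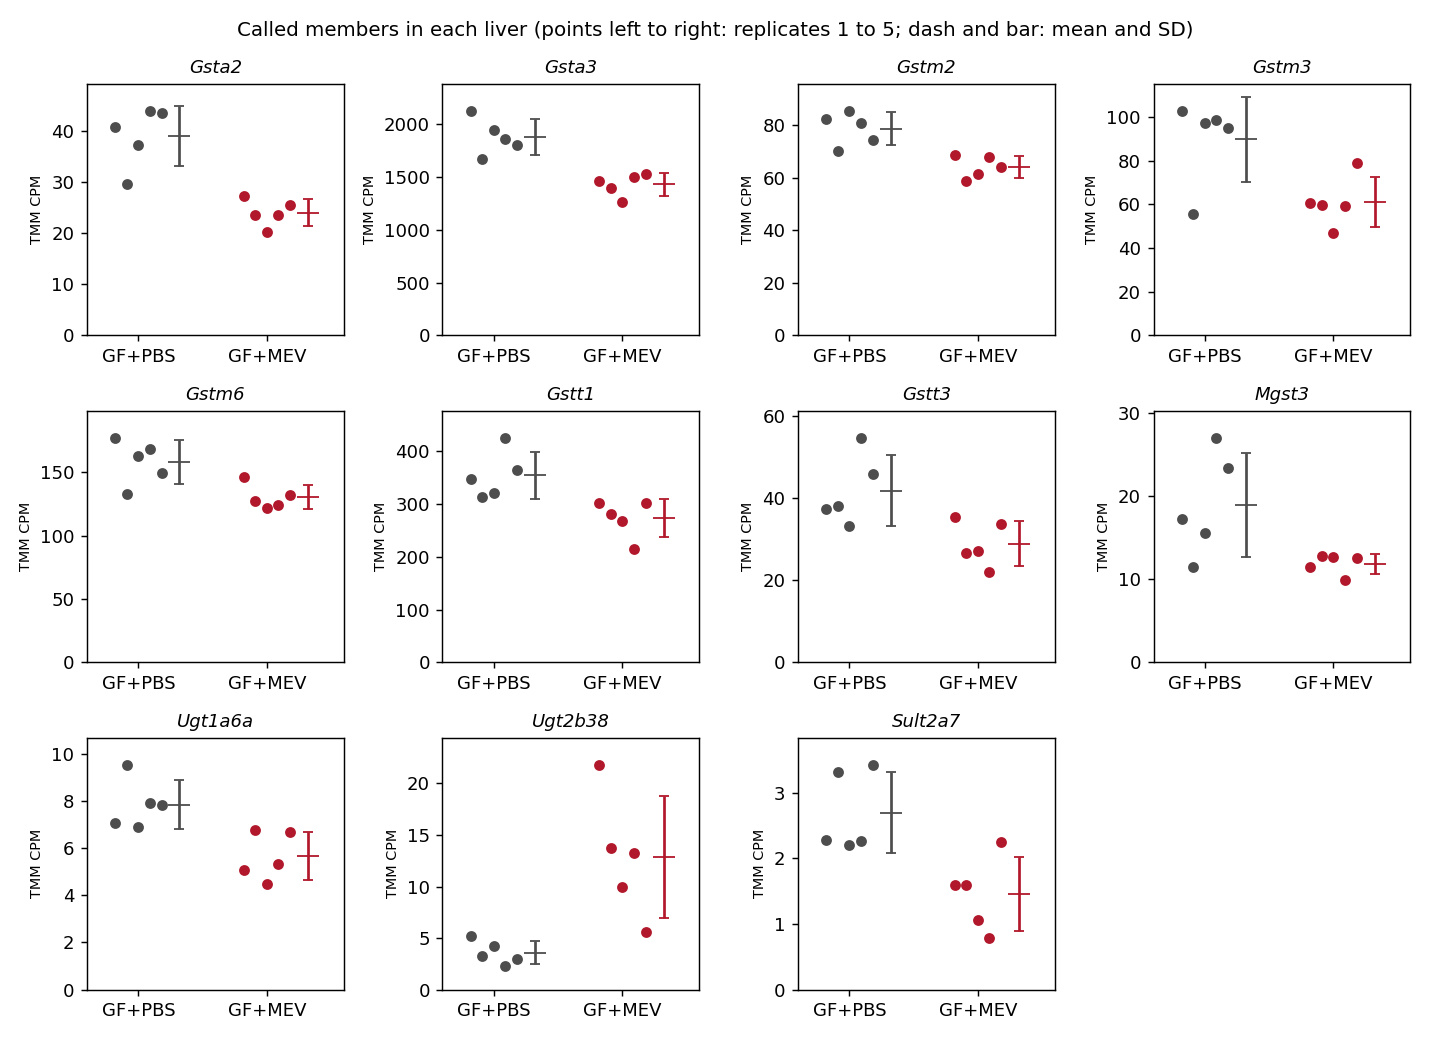
TMM CPM (vertical axes from 0) of the 11 called genes in each GF+PBS and GF+MEV liver, with points from left to right for replicates 1 to 5 and a dash and bar for the mean and SD. Gsta2, Gsta3, Gstm2, Gstt1, Ugt1a6a and Ugt2b38 show no overlap between groups, and in Gstm3 the second GF+PBS point lies among the treated livers.

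Summed over each family, the levels of the groups overlapped under TMM scaling. The GST sum was 9719 ± 481 CPM in GF+MEV and 10761 ± 967 CPM in GF+PBS (SD over 5 livers), the UGT sum 3292 ± 394 and 3517 ± 287, and the SULT sum 1129.6 ± 102 and 1072 ± 42.7. The log2 ratios of the means were -0.15, -0.10 and 0.075. With libraries scaled by size alone the ratios were -0.22, -0.17 and -0.0032, and the GST sums no longer overlapped, at 8999 to 9827 in GF+MEV and 9951 to 12212 in GF+PBS. The genes that made up most of each sum (Mgst1 and Gstm1, the 3 leading Ugt2b genes, Sult2a8 and Sult1a1) were not called.

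**Figure D5:**
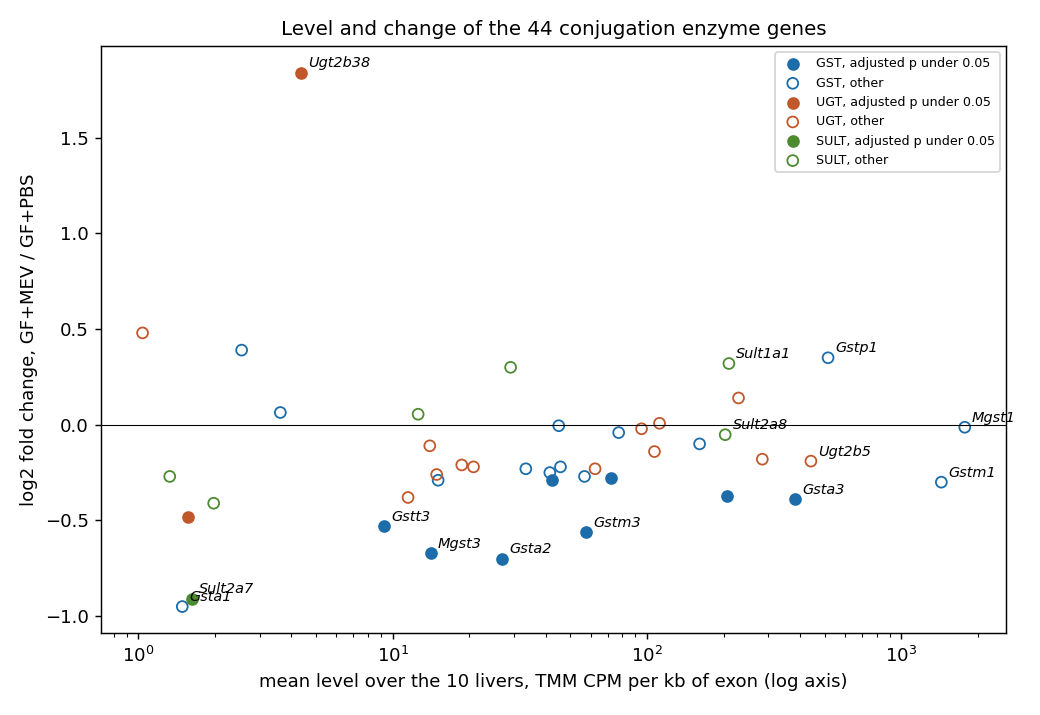
Log2 fold change between groups (vertical axis) against mean level over the 10 livers in TMM CPM per kb of exon (horizontal log axis) for the 44 genes, filled where the adjusted p was under 0.05. Called genes range from Ugt1a6a and Sult2a7 at 1.57 and 1.62 to Gsta3 at 382 CPM per kb, and the 4 genes above that level, up to Mgst1 at 1775, are not called.

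The genes listed around the cofactors were not called. None of 14 glutathione genes, 5 UDP-glucuronic acid genes and 8 sulfate and PAPS genes passed the test. The lists are wider than supply. The glutathione list includes the breakdown and peroxidase genes Chac1, Chac2, Ggct, Gpx1 and Gpx4. The UDP-glucuronic acid list includes Gusb, which cleaves glucuronides. Among all genes tested 7.64% were called, so the absence of calls in lists this short is near the background. Gclc, the catalytic subunit of the rate-limiting step of glutathione synthesis, was at 270.2 ± 39.6 CPM in GF+MEV and 323 ± 48.2 CPM in GF+PBS (edgeR adjusted p = 0.191), Ugdh, which makes UDP-glucuronic acid, at 118 ± 19.6 and 136 ± 15.1 CPM (edgeR adjusted p = 0.27), and Papss2, the main hepatic PAPS synthase, at 174 ± 7.61 and 191 ± 32.8 CPM (edgeR adjusted p = 0.499). Among 17 genes of other conjugation and related reactions, which include the epoxide hydrolases Ephx1 and Ephx2, 2 rose and 2 fell (23.5% of the list). Nnmt, which methylates nicotinamide, rose by 1.21 on the log2 scale (edgeR adjusted p = 0.0050), from 17.7 to 21.2 CPM in GF+PBS to 22.8 to 75.5 CPM in GF+MEV. As3mt, the arsenite methyltransferase, rose by 0.33 (edgeR adjusted p = 0.014). Inmt, a methyltransferase of indolamines, fell by 0.64 (edgeR adjusted p = 0.0050), and the arylamine acetyltransferase Nat2 fell by 0.44 (edgeR adjusted p = 0.026). Of 8 export transporters, not all of them for conjugates, Abcc4 fell by 0.74 (edgeR adjusted p = 0.039). The phospholipid flippase Abcb4 rose by 0.25 (edgeR adjusted p = 0.017). Calls made up 25.0% of the 8 transporters. Abcc2 (0.023) and Abcc3 (0.0044), the main canalicular and basolateral pumps for glucuronides, were not called.

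Of 14 genes listed with the control of conjugation genes (transcription factors, their partners and the reductase gene Por), 3 rose and 2 fell. That was 35.7% of the list, beside 7.64% of all genes tested. Nfe2l2, which encodes NRF2, the activator of many GST genes through the antioxidant response element, fell by 0.50 on the log2 scale, from 58.5 to 67.5 CPM in GF+PBS to 38.8 to 47.7 CPM in GF+MEV (SE 0.068, edgeR adjusted p = 3.7e-04). Cebpa fell by 0.29 (edgeR adjusted p = 0.014). Ahr, the dioxin receptor that induces Ugt1a6 and Nqo1, rose by 0.89 (SE 0.15, edgeR adjusted p = 5.1e-04), Nr1i2, the pregnane X receptor PXR, rose by 0.65 (SE 0.12, edgeR adjusted p = 8.6e-04), and Hnf4a rose by 0.45 (SE 0.057, edgeR adjusted p = 3.6e-04). The message for CAR, Nr1i3, was not called (0.14, edgeR adjusted p = 0.491). Of 17 NRF2 target genes outside the 3 families, 3 fell and none rose, with a median log2 fold change of -0.21. Those were Osgin1 (-2.62), Abcc4 and the quinone reductase Nqo1 (-0.51), while Gclc, Gclm and Hmox1 were not called. Of 4 AHR targets, Nqo1 alone was called, and Cyp1a2 was at 1132 ± 116 CPM in GF+MEV and 1297 ± 106 CPM in GF+PBS (edgeR adjusted p = 0.161). Of 12 CAR and PXR targets, 3 fell (Cyp2b9, Cyp2c29 and Aldh1a1) and 1 rose (Alas1), and Cyp2b10 (-0.21) and Cyp3a11 (-0.23) were not called. The shares called were 17.6% of the NRF2 targets, 25.0% of the AHR targets and 33.3% of the CAR and PXR targets. These lists are short and share some genes.

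The promoters were read for the sites of such factors. RefSeq start sites of GRCm38.p6 were found for 39 of the 44 genes, and the 250 bases before each start were searched on both strands. A gene with several start sites was counted if any of them matched. The percentages are per single promoter, so counts and percentages are not on the same footing. The core of the antioxidant response element, TGACNNNGC, was present in 4 of the 39 (Gsta3, Gstm5, Gstm7 and Mgst1) and in 10.2% of the 32851 promoters searched. Gstm7 and Mgst1 held it at only some of their start sites. GCGTG, the core of the xenobiotic response element to which AHR binds, was present in 9, among them Gsta2 and Mgst3 (28.2% of the promoters searched). GTTAAT, a half-site of HNF1, was present in 8, of which 5 were UGT genes, Ugt1a6a included (6.4% of the promoters searched), and AGAACA, a glucocorticoid receptor half-site, in 9 (16.1%). A match shows letters and not binding. Of the 10 called genes with a start site in the table, Gsta3 alone held the antioxidant response element core in this window, and its promoter is shown for that reason (chr1:21240335-21240584, plus strand), with the core TGACATTGC and the HNF1 half-site, read on the other strand, in capitals.
Gsta3: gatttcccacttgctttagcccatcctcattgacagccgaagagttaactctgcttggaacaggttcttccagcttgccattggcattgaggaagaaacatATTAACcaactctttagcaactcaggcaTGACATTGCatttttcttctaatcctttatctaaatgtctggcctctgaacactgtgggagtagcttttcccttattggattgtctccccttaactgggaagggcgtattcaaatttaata

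Several conjugation genes are known to differ between the sexes and along the liver lobule, and markers of both moved between the groups. Of 15 male-biased liver genes 3 rose and 1 fell, and of the 6 measured female-biased genes 2 fell, namely Cyp2b9 (-3.01) and Cyp2a4 (-2.24). Y-linked genes were detected in all 10 livers. Of 13 pericentral markers 4 fell (Axin2 -1.01, Tbx3 -0.97, Lect2 -0.50, Cyp2c29 -0.45) and Cyp27a1 rose by 0.27, while the defining markers Glul (0.014) and Cyp2e1 (0.020) were not called. Of 14 periportal markers 6 rose and none fell, with Pck1 at 1.71 and Sds at 1.58. The shares called were 26.7% of the male-biased and 33.3% of the female-biased genes. They were 38.5% of the pericentral and 42.9% of the periportal markers. Among all genes tested 7.64% were called, 4.12% rising and 3.52% falling, and these lists are short. The part of these markers in the results for the enzymes was not tested.

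Markers of other cell types were compared in the same way. Summed CPM overlapped between groups for endothelial cells (132 to 213 in GF+MEV, 167 to 229 in GF+PBS), Kupffer cells (197 to 396 and 239 to 348), stellate cells (176 to 251 and 204 to 229.8), cholangiocytes (44.6 to 96.3 and 41.2 to 50.2, from 4 of 8 markers in the table), enterocytes (109 to 162 and 129 to 157, from 2 of 8) and skeletal muscle (224 to 309.8 and 191 to 664, from 4 of 5). Sums can hide single markers. Within the cholangiocyte list, Krt19 rose from 0.303 to 0.781 CPM in GF+PBS to 0.964 to 16.8 CPM in GF+MEV. Of the 8 endothelial markers, Clec4g fell by 0.48 on the log2 scale (edgeR adjusted p = 0.021). Lyve1 rose by 0.84 (edgeR adjusted p = 0.040), and 6 were not called. Of the 7 hepatocyte markers, 3 rose (Tat 2.10, Hnf4a 0.45, Cps1 0.38) and 4 were not called. Among all genes tested 7.64% were called. The B, T and NK cell sum, from 4 of 8 markers, did not overlap, at 3.86 to 4.88 CPM in GF+MEV and 6.61 to 8.44 CPM in GF+PBS. No marker in the table was at 0 in all livers. The part of these cells in the results for the enzymes was not tested.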

How the data were processed

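Whole-liver RNA libraries of 10 germ-free mice were analysed. Per the labels and the study's methods, the authors made libraries with a kit that does not mark strand, demultiplexed reads with bcl2fastq 2.17, aligned them to GRCm38 with STAR 2.7.3a, counted them per gene with HTSeq and removed genes under 20 counts. The deposited values are raw counts per Ensembl gene. The counting mode and annotation release are not given in the sources used here, and overlapping antisense genes cannot be told apart. The table held 5 further columns that match no described sample and were not used. Gene names and coordinates came from GENCODE for GRCm38, and 5 identifiers had no symbol.

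Groups were compared with edgeR 4.0.16 under R 4.3.3 (TMM, quasi-likelihood fit on group alone, at least 20 counts summed over 10 libraries, Benjamini-Hochberg over all genes, threshold 0.05). SEs were computed on log2 CPM to which a prior count of 2 had been added. Alternatives used DESeq2 1.42.0, limma-voom (limma 3.58.1), other scalings and filters, a replicate block, fewer livers and another gene length. The steps were tested on simulated data. Levels were compared between genes per kb of exon. Genes were named if called, nearest the threshold, most abundant in their family, most variable, largest in change, or without overlap between groups. The other genes were named only to account for each member. The genes and lists were chosen with earlier results of these data known.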

Additional observations from a re-analysis of the deposited data

Results flagged for a closer look

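In 5 of the 94 groups of 5 livers examined (each of the 44 genes and 3 family sums in each treatment group), 1 liver lay farther from the rest than Dixon's 95% limit of 0.71 of the range. Chance alone gives about 4.70 such groups. Gstm3 in GF+PBS 2 was at 55.5 CPM, against 94.8 to 103 CPM in the other 4 controls. Gstp2 in GF+MEV 2 was at 6.69 CPM, against 1.74 to 2.99 CPM in the other treated livers. Gstz1 in GF+MEV 3 was at 759 CPM, against 791 to 803 CPM. Sult5a1 in GF+MEV 4 was at 7.92 CPM, against 4.24 to 5.17 CPM. Ugt2b36 in GF+MEV 3 was at 445 CPM, against 561 to 592 CPM.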

How the results depend on the processing

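The 11 enzyme calls (1 higher, 10 lower) became 13 with DESeq2 (1 and 12), 9 with limma-voom (1 and 8), 12 with upper-quartile factors (1 and 11) and 13 with library size alone (1 and 12), and stayed at 11 with DESeq2 size factors, without the filter, and with at least 10 counts in every library, where Gsta1 dropped out. Leaving out 1 liver gave 4 to 11 calls, of which 1 to 2 were higher and 3 to 10 lower. That was 9.09% to 25.0% of the 44 genes, beside 5.73% to 7.62% of all genes tested. Summing the alike GF+PBS livers gave 3 calls, 2 of them lower. The number called higher was 2 against GF+PBS 1 and 3 alone (Sult1a1 and Ugt2b38) and 2 against GF+PBS 2, 4 and 5 alone (Gstp1 and Ugt2b38). These 2 comparisons, and the transcript length used for levels, were added after the data were seen. The replicate numbers did not pair the livers (correlations of same-numbered livers 0.17, -0.084, -0.052, -0.19 and 0.059, with only number 1 best matched to itself), and a replicate block left 8 calls, 1 higher and 7 lower. Of the 44 genes, 11 changed sign in some alternative, none of them among the 11 called: Gstp2 (0.39) to -0.037 without GF+MEV 2 (up to 0.67 with 1 other liver left out), Mgst1 to 0.035 without GF+MEV 3, 0.017 without GF+PBS 1, 0.012 without GF+PBS 3 (down to -0.045 with 1 other left out), 0.0040 with alike livers summed and 0.062 against GF+PBS 2, 4 and 5, Sult2a8 to 0.015 without GF+MEV 3 (down to -0.093 with 1 other left out) and Ugt2b1 to -0.0059, Ugt2b37 (0.48) to -0.085 and Ugt1a5 (-0.26) to 0.10 against GF+PBS 1 and 3, with Gstm5, Gsto1, Sult1b1, Ugt2a3 and Ugt3a2 moving to values between -0.066 and 0.074. The cause was not tested. The GST median ranged from -0.35 to -0.22 and the UGT median from -0.26 to -0.10, and the SULT median was 0.015 without GF+MEV 3 and between -0.13 and -0.0040 otherwise. Transcript length kept 8 of the 9 most abundant genes per length, with Gsta3 in place of Gstp1, and raised Mgst1 from 1775 to 3469 and Gstm1 from 1436 to 2556 CPM per kb. Low counts limit Gsta1, Gstp2, Ugt2b37 and Sult2a7 most.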
